A study of Glycine max with 9 samples.

Results

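Among 49777 soybean genes measured in chilled leaves, 3 were higher after 24 h at 4 °C than at both earlier times in every replicate number, without having passed the same margin on average at 1 h. They are Glyma08g07250, Glyma12g35090 and Glyma20g34670. The rule worked on log2(normalized count + 1) and took differences between libraries that carry the same replicate number. A gene was a member if the difference of 24 h minus 0 h and that of 24 h minus 1 h were both at least 0.4 in all 3 numbers, if the mean difference of 1 h minus 0 h was below 0.4, and if the 24 h libraries averaged at least 100 normalized counts. A difference of 0.4 is 1.32-fold. The members were thus chosen by the measured values of all 3 contrasts between the times, so the differences below describe the members and are not tested.

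The leaves were unifoliates, the first pair of simple leaves, of 2-week-old Glycine max plants of the cultivar Williams82 (PI518671). The chamber was kept at 20 °C with days of 18 h and nights of 6 h, and cold at 4 °C began 4 h after lights came on. Leaves were taken after 0, 1 and 24 h in the cold, in 3 libraries per time from at least 6 plants each. What libraries of the same replicate number have in common is not stated in the labels. Leaves of the 24 h group were a day older than those of the 0 h group, those of the 1 h group came from a later hour of the day, and unchilled leaves of that age or hour were not analysed here, so cold cannot be told apart from age at 24 h or from hour at 1 h. In bulk leaf RNA, fewer cells of a type and less RNA per cell cannot be told apart.

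Plants answer chilling in waves. Transcription factors of the CBF/DREB family are among the first genes to be induced in many species, and genes for protective proteins, compatible sugars and membrane lipids follow as the cold persists. Whether these 3 genes have any such role is not known from the files: they do not pair identifiers with names, 0 of 49777 identifiers matched the 59048 genes of the RefSeq soybean table (Glycine_max_v4.0), and for the same reason the leaf origin was not checked against marker genes. No sequence is shown for them either.

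Libraries of the same replicate number deviated together, and replicate 3 stood apart. Their deviations from the time means correlated across genes at 0.689 to 0.95 between times. A library summed to 71.0 to 81.9 M normalized counts. The spacing of low values put the depth at 17.9 to 58.4 M reads in the libraries of 0 h and 1 h, and at 47.8 to 67.7 M in those of 24 h. Of 28537 genes averaging 100 or more, 5.78% were more than 8-fold higher in replicate 3 than in replicates 1 and 2.

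Glyma08g07250 was the member that cleared the threshold by most. At 0 h it had 53, 46 and 796 normalized counts (replicates 1, 2 and 3, as in all such lists here), then 43, 35 and 779 at 1 h, and 88, 100 and 1116 at 24 h. It was lowest at 1 h in all 3 replicate numbers and highest at 24 h in all 3, but its 24 h values in replicates 1 and 2 lay far below its unchilled value in replicate 3, so the groups overlapped. Its level in replicate 3, taken over the 3 times, was 15.4-fold that in replicates 1 and 2, above 96.6% of genes.

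Within replicates 1, 2 and 3 the log2 difference of Glyma08g07250 was 0.72, 1.10 and 0.49 at 24 h minus 0 h. At 24 h minus 1 h it was 1.02, 1.49 and 0.52. The change was thus smallest where the gene was most abundant. At 1 h minus 0 h it was -0.30, -0.38 and -0.03. The values in replicates 1 and 2 rest on few reads: an estimated 21.0 and 11.1 reads at 0 h, followed by 15.9 and 13.0 reads at 1 h and then 56.1 and 85.3 reads at 24 h. Counting alone gives the 24 h minus 0 h differences a standard error of 0.37 and 0.46 there, and of 0.08 in replicate 3, where 674.3 reads at 24 h stood against 513.5 at 0 h.

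Glyma12g35090 was the most abundant member. Its normalized counts were 266, 347 and 2494 at 0 h, then 281, 482 and 3115 at 1 h, and 488, 686 and 4187 at 24 h. Every replicate number climbed from each time to the next, and its level in replicate 3 was 7.93-fold that in replicates 1 and 2 over the 3 times, above 94.2% of genes. The groups overlapped, with 488 and 686 at 24 h in replicates 1 and 2 below 2494 at 0 h in replicate 3. Its mean of 1787 at 24 h was rank 7122 from the top among all genes.

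Within replicates 1, 2 and 3 the log2 difference of Glyma12g35090 was 0.87, 0.98 and 0.75 at 24 h minus 0 h, the narrowest range of the members. At 24 h minus 1 h it was 0.79, 0.51 and 0.43. At 1 h minus 0 h it was 0.08, 0.47 and 0.32, so that in replicate 2 the 1 h difference passed the 0.4 that the rule allowed for the mean.

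Glyma20g34670 was the least abundant member, with normalized counts of 54, 42 and 84 at 0 h, then 61, 48 and 135 at 1 h, and 82, 74 and 183 at 24 h. It too climbed at each step in all 3 replicate numbers. Its 24 h values in replicates 1 and 2 lay below the 1 h value in replicate 3. Its mean of 113 at 24 h was close to the minimum of 100 and exceeded that of 2.28% of the genes above the minimum.

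Within replicates 1, 2 and 3 the log2 difference of Glyma20g34670 was 0.59, 0.80 and 1.11 at 24 h minus 0 h, largest in replicate 3, where that of Glyma08g07250 was smallest. At 24 h minus 1 h it was 0.42, 0.61 and 0.44, and at 1 h minus 0 h 0.17, 0.19 and 0.68. Its 0 h values stood for an estimated 21.4, 10.1 and 54.2 reads, and its 24 h minus 1 h differences were 1.16, 1.59 and 2.20 times their standard error from counting.

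**Figure D1:**
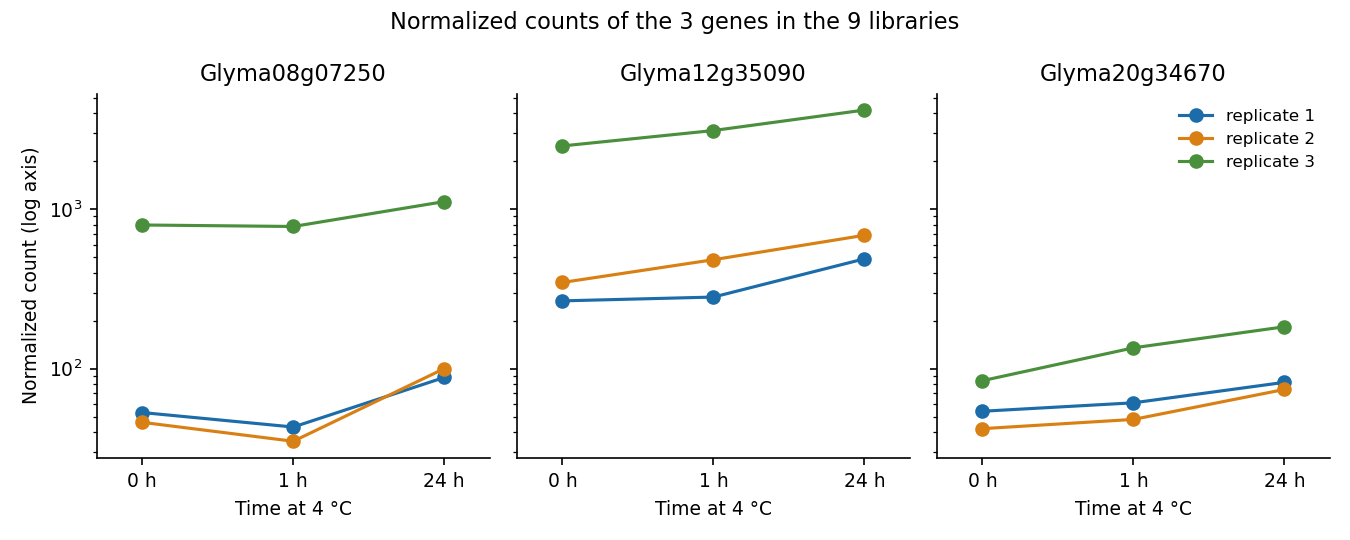
Normalized counts (log axis) of the 3 genes in each of the 9 libraries by time at 4 °C, with a line for each replicate number. Replicate 3 lies above the others for all 3 genes, Glyma08g07250 dips at 1 h, and the other 2 climb at both steps.

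**Figure D2:**
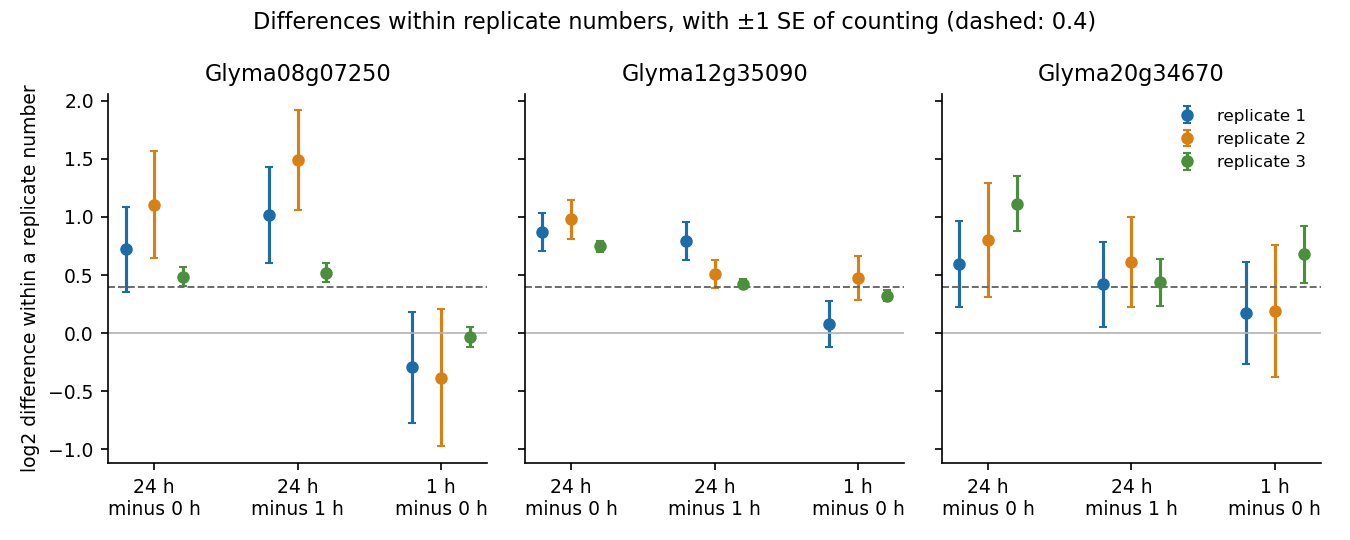
Differences of log2(normalized count + 1) within replicate numbers for the 3 genes, with bars of 1 standard error of counting estimated from the worth of 1 read in each library; the dashed line is 0.4. All 24 h differences lie above the line, several by less than their bar, and the 1 h minus 0 h differences are below 0 in Glyma08g07250 and above 0 in the other 2.

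The values at 1 h do not settle whether the 3 genes were higher only after a day. The mean difference of Glyma08g07250 at 1 h minus 0 h was -0.24 ± 0.18 on the log2 scale (mean ± SD, n = 3 replicate numbers). In replicates 1, 2 and 3 this dip was 0.62, 0.65 and 0.36 times its standard error from counting, and the 4 genes nearest to it in identifier order had mean differences of -0.30 to -0.14 at 1 h minus 0 h. The mean difference was 0.29 ± 0.20 for Glyma12g35090 and 0.35 ± 0.29 for Glyma20g34670, above 0 in 3 of 3 numbers each, and both genes qualified because these means fell below 0.4. The 1 h differences were 0.40, 2.47 and 6.86 times their counting error for Glyma12g35090, and 0.40, 0.33 and 2.79 times for Glyma20g34670. The 4 nearest genes had mean 1 h differences of -0.64 to 0.25 around Glyma12g35090 and -0.02 to 0.34 around Glyma20g34670. Over the 38985 genes averaging 10 or more, the quartiles of this difference were -0.18 and 0.18. With every single 1 h difference required to be below 0.4, Glyma08g07250 alone remained. It was also the single member left when library totals were made equal. This scaling moved the median of all genes at 24 h minus 1 h to -0.10, compared with 0.00 as deposited, and so carried members near the threshold below it. Under the same scaling the mean 1 h difference was 0.353 for Glyma12g35090 and 0.408 for Glyma20g34670, the latter also above the 1 h limit of 0.4.

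Over the members, the mean difference of 24 h minus 0 h was 0.77 ± 0.31 for Glyma08g07250, 0.87 ± 0.12 for Glyma12g35090 and 0.84 ± 0.26 for Glyma20g34670 (mean ± SD, n = 3 replicate numbers). These are 1.71-, 1.82- and 1.79-fold, and the 3 means lay closer together than the spread of any member over its replicate numbers. Their median of 0.84 compares with -0.02 over the 38985 genes that averaged 10 or more. For 24 h minus 1 h the means were 1.01 ± 0.49, 0.58 ± 0.19 and 0.49 ± 0.11, with a median of 0.58 against 0.00 over all those genes.

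Most genes that passed the rule's first condition failed the next. Among the 28502 genes with a 24 h mean of at least 100, 528 (1.85%) were at least 0.4 higher at 24 h than at 0 h in all 3 replicate numbers, and 52 (0.182%) were so against 1 h. Both held in 11 genes, and 3 of these, 0.0105% of the 28502, averaged less than 0.4 at 1 h. The other 8 averaged 0.4 or more at 1 h, with mean differences from 0 h of 0.65 to 3.64, and they reached 1.42 to 5.02 at 24 h minus 0 h, more than any of the 3 members. Of the 528 genes, 73 averaged less than 0.4 at 1 h, and 3 of those 73 also passed the condition on 24 h minus 1 h. Over the 73 the median difference was 0.57 at 24 h minus 0 h, 0.33 at 1 h minus 0 h and 0.27 at 24 h minus 1 h.

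**Figure D3:**
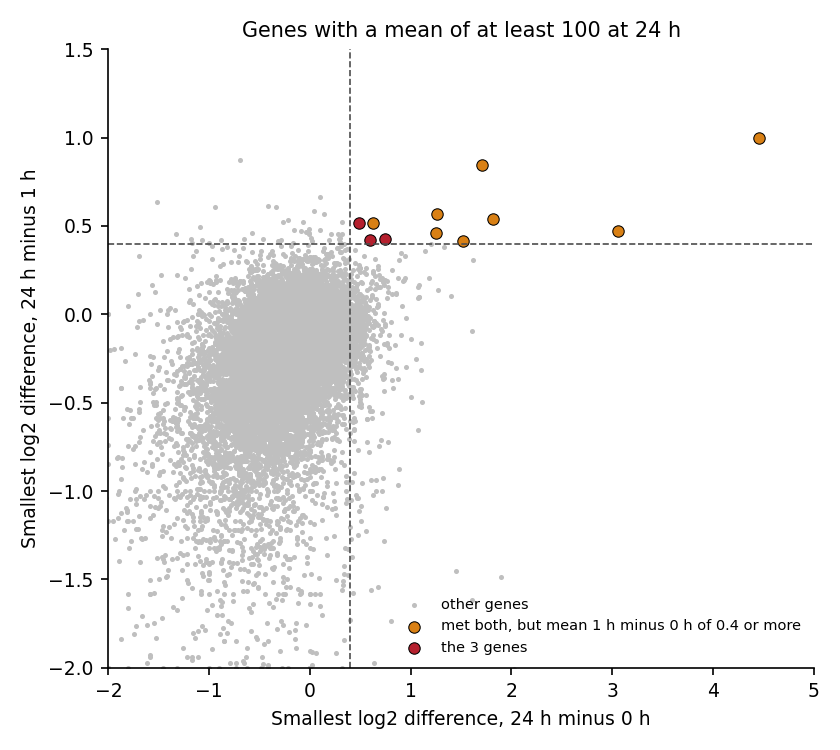
Smallest of the 3 log2 differences of 24 h minus 0 h (horizontal axis) against the smallest of 24 h minus 1 h (vertical axis), 1 point per gene with a 24 h mean of at least 100; dashed lines mark 0.4 and 327 genes lie outside the axes. The 3 genes sit at the corner of the 2 lines, and most of the 8 that averaged 0.4 or more at 1 h lie farther out along the horizontal axis, although 1 of them, at 0.62, falls short of Glyma12g35090 at 0.75.

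The members stood close to the threshold. Their smallest difference over both contrasts was 0.42 in Glyma20g34670, 0.43 in Glyma12g35090 and 0.49 in Glyma08g07250, and the nearest genes outside had 0.37 and 0.36. A minimum of 0.5 left 0 genes and a minimum of 0.3 gave 16. A further 98 genes met the differences with a 24 h mean below 100, the most abundant of them at 65.0 normalized counts.

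The mirrored rule, for genes at least 0.4 lower at 24 h than at both earlier times with a 0 h mean of at least 100, found 7 of 28495 genes (0.0246%). Their mean differences were -1.44 to -0.66 at 24 h minus 0 h and -1.66 to -0.49 at 24 h minus 1 h. Both lowest values came from a single gene near the floor in replicates 1 and 2. It had 8, 4 and 660 normalized counts at 0 h and 0, 2 and 499 at 24 h. Without that gene the lowest were -0.88 and -1.05. At minimum differences of 0.1, 0.2 and 0.3 the rule found 287, 62 and 16 genes and the mirrored one 320, 82 and 23. Which direction held more genes varied with the conditions applied. With the 1 h condition and the difference of 24 h minus 0 h alone, 73 genes were higher and 137 lower. With both differences but without the 1 h condition, 11 genes were higher and 13 lower. With a single difference and no 1 h condition, 528 genes were at least 0.4 higher and 463 at least 0.4 lower at 24 h minus 0 h. At 24 h minus 1 h, 52 were higher and 41 lower. Below the minimum level, 98 genes met the rule and 48 the mirrored one. No test was made of these differences in number.

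**Figure D4:**
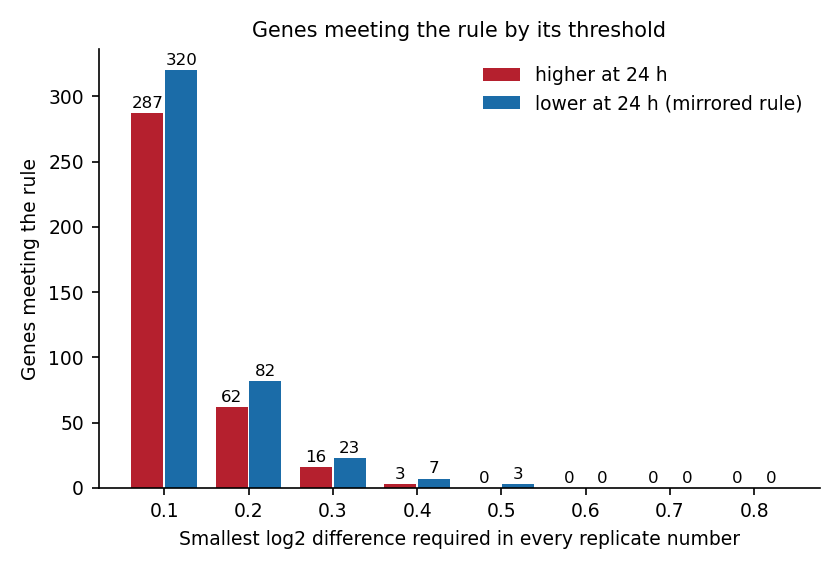
Number of genes that met the rule (higher at 24 h) and the mirrored rule (lower at 24 h) against the smallest log2 difference required in every replicate number, with the 1 h condition held at 0.4. The counts of higher genes go from 287 at 0.1 to 3 at 0.4 and 0 at 0.5, with the lower genes at 320, 7 and 3.

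Fitted over all 38985 genes, limma made few calls that bear on the members, and since the rule used these contrasts nothing is read from the counts. For 24 h against 1 h, 0 of 3 members and 0% of all genes were called higher at an adjusted p under 0.05, without or with the replicate number as a block (68 and 2211 genes at an unadjusted p under 0.05 in either direction). For 24 h against 0 h, 0 of 3 members and 0% of genes were called without the block (549 genes at an unadjusted p under 0.05). With it 1 of 3 was called, Glyma12g35090, beside 3.01% of genes called higher. For 1 h against 0 h, 0 of 3 members were called in either fit, beside 0% of genes without the block (539 at an unadjusted p under 0.05) and 4.47% with it (7839 at an unadjusted p under 0.05). Both comparisons with 0 h share the same 0 h libraries. The fit without the block counts the differences between replicate numbers as spread, so its 0 calls do not show that nothing changed.

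The members do not rest on the same libraries. Without replicate 3, Glyma08g07250 and Glyma20g34670 averaged 94.0 and 78.0 normalized counts at 24 h, below the minimum, and Glyma12g35090 remained with 587. Without replicate 1 or replicate 2, Glyma20g34670 left because its mean 1 h difference came to 0.43 in each case, and the other 2 stayed. Glyma12g35090 was therefore the 1 member that met the rule whichever number was left out, at a mean 1 h difference of 0.40 without replicate 1, just under the limit. Only the 1 h mean and the 24 h level could fail here. The members had been chosen to pass both differences at 24 h in every number, so this is no check of the rise.

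A rule that ignores replicate numbers and also forbids overlap between times leaves the members out. Their group means passed its limits, but all 3 overlapped between times, so their absence was fixed beforehand. The rule required group means at least 0.4 apart on the log2 scale and all 3 values at 24 h above the other 6. With the same 1 h limit and the same minimum it gave 4 of the 28502 genes, and 0 of the 3 members were among them. Those 4 were at means of 113 to 31400 normalized counts at 24 h, and their differences were 0.43 to 0.81 at 24 h minus 0 h and 0.41 to 0.58 at 24 h minus 1 h. Between group means the size of the members' change also hung on single libraries. The median over the 3 members at 24 h minus 0 h, 0.84 with all libraries, was -0.084 without the 24 h library of replicate 3 and 1.88 without its 0 h library. Replicate 3 was higher in all 3 members, so removing 1 of its libraries by itself shifts a group mean. Within replicate numbers either omission gave 0.91, where the rule had already required at least 0.4.

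The members were not neighbours: their identifiers place them on chromosomes 8, 12 and 20. The 4 nearest identifiers with a mean of at least 10, 2 on each side, had mean differences of 24 h minus 0 h of -0.04 to 0.12 around Glyma08g07250, -0.77 to 0.18 around Glyma12g35090 and -0.03 to 0.28 around Glyma20g34670. The members were chosen for high differences and the neighbours were not, so lower values beside them are no finding. Over the 38985 genes averaging 10 or more, the quartiles of the 24 h minus 0 h difference were -0.19 and 0.17. Around Glyma08g07250 the neighbours were 0.12 to 0.36 higher at 24 h than at 1 h, compared with 1.01 in the gene itself. For this contrast they were at -0.26 to -0.07 around Glyma12g35090 and -0.06 to 0.08 around Glyma20g34670. Its quartiles over the 38985 genes were -0.12 and 0.11.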

How the data were processed

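RNA of 9 leaf libraries was measured after 0, 1 and 24 h at 4 °C, grouped and numbered by the sample titles. Each value is a score in the deposited table: a read count that the authors normalized, per the name of the table, and rounded to whole numbers. Per the submitters' processing notes cutadapt 1.2.1 and DESeq 1.12 took part, in roles not stated. The aligner, counter, build and annotation are not given in the sources used here. The counting of reads that near-identical genes share is not stated, which leaves the level of any single identifier uncertain. The identifiers could not be matched to names, and the gene lists planned by name were not run.

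Low scores (1 to 40) fell on steps whose spacing gave the worth of 1 read, 1.17 to 4.15 by library, with 83.3% to 95.9% of them on whole steps after rounding. Where 1 read was worth little more than 1, most whole numbers are steps, so a high share there says little. The model took the rest to lie midway, in a share that was assumed. Reads could not be recovered as whole numbers, and a count test was not possible. The form of this model was set after the values were seen, and it was tested on data simulated with the same form. Estimated reads and their counting errors are approximate and cover counting only.

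Scores were analysed as log2(score + 1), which understates changes of low genes. As background, limma 3.58.1 in R 4.3.3 (trend and robust eBayes) was fitted to 38985 genes averaging 10 or more, leaving out 10792. It used Benjamini-Hochberg adjustment and a threshold of 0.05, and was fitted both without a replicate term and with a block for each number. A check on simulated data covered only the fit with the block and changes far larger than those of the members. It says nothing of the power to call changes of their size. The numbers pair the libraries in the data: same-numbered deviations correlated at 0.689 or more, and 9 of 9 libraries correlated best with their own number. The labels do not say that the numbers mark separate plantings, so p-values measure the spread between these libraries. Python 3.11.15, numpy 2.4.6 and pandas 2.3.3 made the tables.

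The members, the rule and the alternatives were chosen with earlier results of these data known. The naming rule covered the 2 members of largest smallest difference, and the third was added because the members are so few.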

Additional observations from a re-analysis of the deposited data

How the results depend on the processing

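The number of genes meeting the rule depended on most settings tried. It was 16, 0 and 0 at a minimum difference of 0.3, 0.5 and 1, and 62 at 0.2, a setting added after the data were seen, as were the mirrored rule and the scan. It was 6 with a minimum mean of 50, 1 with all 3 differences at 1 h below 0.4, and 1 with equal library totals, where Glyma08g07250 remained and the smallest differences of the other 2 were 0.34 and 0.35. Pseudocounts of 0.5 and 5 gave 3 and 2 genes, a minimum mean of 200 gave 2, a two-sided limit at 1 h gave 3 and quantile normalization gave 4, which held 3, 2, 2, 3 and 3 of the members. Leaving out a replicate number gave 17 to 39 genes and leaving out a single library 4 to 39, since fewer differences must then pass; 1 to 3 of the members were among them. The mirrored rule gave 40 to 115 and 11 to 171.

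Over 17 alternatives that kept differences within replicate numbers or all libraries, the members' median 24 h minus 0 h difference was 0.80 to 0.91. The same 3 members were kept throughout, and the rule had required at least 0.4 in every number, so this range is no check of the rise. Dropping a 1 h library, or taking group means over all libraries, cannot move the value. Dropping a replicate number, its 0 h library or its 24 h library gives the same value. Between group means with 1 library left out, a setting added after the data were seen, the median ran from -0.084 to 1.88. The lowest came when the 24 h library of replicate 3 was dropped, which reverses the direction, and the highest when its 0 h library was. Dropping replicate 1 or 2 gave 1.41 or 1.22 for a 24 h library, and 0.27 or 0.46 for a 0 h library. Replicate 3 was higher in all 3 members, so removing a library by itself shifts its group mean. Adding the replicate block to limma moved the members called higher at 24 h against 0 h to 1, and to 1 or 2 in 17 of the 19 fits with the block. It was 2 with a pseudocount of 5 and without the 1 h library of replicate 2, and 0 with plain eBayes and without replicate number 2. No member was called in the other 2 comparisons in any of the 18 alternative fits without the block or the 19 with it. The count test planned for recovered reads was not run, since the scores did not give whole reads. Depth limits Glyma08g07250 and Glyma20g34670, which rest on 10.1 to 22.5 estimated reads at 0 h and 1 h in replicates 1 and 2.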
